A study of Mus musculus with 30 samples.

Results

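Small RNAs of 28 to 31 nucleotides (nt) in mouse serum were chosen by length alone, as each sequence of 28, 29, 30 or 31 letters in a table of serum small RNA counts. They made up 3305 of the 21634 sequences listed (15.3%) and 34.6% of all counts. The study asked whether circulating factors carry effects of early postnatal stress in males to germ cells and offspring, and only its serum libraries were used here. The donors were C57Bl/6J males aged 3 months. MSUS donors had been separated from their mothers at unpredictable times in the first 14 days of life while the dams were also stressed, whereas the litters of CTRL donors had been left undisturbed. Libraries 1, 2, 3 and 5 were CTRL and libraries 6, 7, 8 and 10 were MSUS, which gave 4 libraries in each group. The sources used here do not say whether each library came from a separate mouse, so the p-values measure the spread between libraries.

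RNAs of this length in blood are known to include 5′ fragments of transfer RNAs (tRNAs), made when a ribonuclease opens the anticodon loop of a mature tRNA. Such fragments circulate in vesicles and in protein complexes. Transfer RNAs carry many chemically modified bases, and a reverse transcriptase can misread or skip some of them while a library is made.

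Each library held between 12445867 counts (CTRL 5) and 16733257 counts (MSUS 6), where a count is a sequenced read of exactly that sequence. The 28-31 nt sequences took 38.7%, 27.9%, 27.3% and 36.99% of the counts in CTRL 1, 2, 3 and 5, and 25.9%, 47.0%, 32.4% and 41.8% in MSUS 6, 7, 8 and 10. The 95% Wilson interval reached at most 0.0272 percentage points to either side of a share. This covers counting error only, since PCR reads without molecular identifiers are not independent molecules. The highest share (MSUS 7) and the lowest (MSUS 6) were both in MSUS, and the groups overlapped, with 32.7% ± 5.96 (SD, n = 4) in CTRL and 36.7% ± 9.44 (SD, n = 4) in MSUS. More releasing cells and more RNA per cell cannot be told apart in serum. The neighbouring 32-34 nt sequences took 39.1%, 52.4%, 44.3% and 35.7% in CTRL 1, 2, 3 and 5 and 57.7%, 33.4%, 50.8% and 32.5% in MSUS 6, 7, 8 and 10. Libraries low at 28-31 nt were thus high at 32-34 nt. Both are shares of the same total, and together they took from 71.6% (CTRL 3) to 83.6% (MSUS 6). A low share in one class therefore largely entails a high share in the other.

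The libraries did not all stand nearest to their own group. Over the 1056 members with over 20 counts in 4 or more libraries, the median absolute log2 difference in scaled abundance was lowest between MSUS 7 and MSUS 10 (0.33), MSUS 6 and MSUS 8 (0.34), and CTRL 2 and CTRL 3 (0.34). CTRL 5 was 0.50, 0.54 and 0.56 from CTRL 1, 2 and 3, and 0.56, 0.44, 0.37 and 0.44 from MSUS 6, 7, 8 and 10. Over all 5513 sequences that passed the same minimum, CTRL 5 was 0.50, 0.56 and 0.48 from CTRL 1, 2 and 3 and 0.59, 0.51, 0.63 and 0.43 from MSUS 6, 7, 8 and 10, so over all sequences only MSUS 10 was nearer to it than each of these CTRL libraries. Counts of calls and of pairs are given with and without CTRL 5, and the cause of its place was not tested.

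Counts were concentrated at the longer lengths and in few sequences. The table listed 314 sequences of 28 nt, 613 of 29 nt, 1023 of 30 nt and 1355 of 31 nt, which held 0.798%, 5.02%, 32.9% and 61.3% of the 39851724 counts at 28-31 nt. The most abundant sequence held 36.2% of these counts, the 10 most abundant held 86.9% and the 100 most abundant 97.6%. At the other end, 1888 members had under 100 counts over all libraries, and the median member had 74. No sequence in the table had a total below 8, so rarer ones could not be examined. The count minimum was passed by 1056 members, which held 99.5% of the counts, and not by the other 2249. G was the first base of 90.5% of the counts but of only 56.3% of the sequences. An unread base, N, occurred in 79 members with 16337 counts.

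When members of the same first 20 bases were joined, 1620 prefix groups resulted, of which 959 (59.2%) had a single sequence and the largest had 96. The first group held 56.1% of the counts and the first 3 groups 82.8%. The first 20 groups held 96.3% of the counts, and 3 of them are not reported here, some ranking above groups that are. The other 17 are described, and most were close relatives of each other. Against the more abundant groups, 4 had no relative and are called the heads of families 1 to 4, 8 differed by substitutions, 4 by a missing stretch of 1 to 3 bases and 1 by a base added at the 5′ end. Family 1 held 86.9% of the 28-31 nt counts in 8 groups, family 2 held 3.56% in 6 groups, family 3 held 1.53% and family 4 held 0.603%. By library, family 1 took 87.9%, 86.7%, 86.7% and 84.6% in CTRL 1, 2, 3 and 5 and 86.1%, 86.7%, 86.2% and 89.2% in MSUS 6, 7, 8 and 10, and the groups overlapped.

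The leading sequences of the 8 groups of family 1 are given with their counts over all libraries. Positions are counted from 1 at the 5′ end of the head sequence. Capitals mark a substituted base, or the bases on either side of a missing stretch.
Family 1, head (14424382 counts): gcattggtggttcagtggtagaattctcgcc
Family 1, G6T (4246267 counts): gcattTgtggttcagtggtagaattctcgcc
Family 1, T5G (568111 counts): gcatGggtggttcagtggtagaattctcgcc
Family 1, G9A and G15A (341372 counts): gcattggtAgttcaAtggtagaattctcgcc
Family 1, G6A (44094 counts): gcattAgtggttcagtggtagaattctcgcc
Family 1, 1 base missing (1808524 counts): gcatTGtggttcagtggtagaattctcgcc
Family 1, 2 bases missing (155625 counts): gcaTGtggttcagtggtagaattctcgcc
Family 1, 3 bases missing (128397 counts): gcaTTggttcagtggtagaattctcgcc
The single missing base can be placed at 2 positions and the 3 missing bases in 5 ways with the same result, so the letters do not fix the exact site.

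Few members could be given an RNA name. Names required an exact match, and no genome sequence was used. Each member was searched in the RefSeq promoter windows of GRCm38.p6 and in microRNA hairpins. An exact match within an annotated tRNA gene was found for 27 members, with 1.04% of the 28-31 nt counts, and 1 more began 1 base in front of such a gene. A match in a window outside such genes was found for 2 members with 65 counts, and 2 members with 107 counts matched the hairpin of Gm24148. The other 3273 members, the head of family 1 included, had no match and are described by sequence alone.

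Substitutions were concentrated at few positions. For each head sequence, the counts of all sequences of the same length that differ from it by 1 base were set against the sum of these and the head itself. In family 1, 26.1% of that sum was substituted, with 22.0% at position 6 and 2.94% at position 5, whereas the median position had 0.0288%. In family 2, 37.9% was substituted, with 28.3% at position 9 and 7.61% at position 6, against a median of 0.0245%. In family 4, 18.1% was substituted, with 9.88% at position 6 and over 1% at 5 positions in all, against a median of 0.0259%. Family 3 had the lowest total, 2.82%, with 1.53% at position 6 against a median of 0.0280%. The position with the most substitutions is in capitals.
Family 1: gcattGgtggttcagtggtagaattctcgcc
Family 2: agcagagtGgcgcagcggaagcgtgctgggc
Family 4: cggatAgctcagtcggtagagcatcagac
Whether these letters stand in gene copies, come from modified bases or arose in the library was not tested.

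The replacing base differed between sites. In family 1, G6T took 17.04%, 19.5%, 17.04% and 26.2% in CTRL 1, 2, 3 and 5 and 24.5%, 24.6%, 23.6% and 22.7% in MSUS 6, 7, 8 and 10. CTRL 5 was the highest of the 8 libraries and CTRL 1, 2 and 3 were the lowest, so the groups overlapped. G6A was rare, with 0.201%, 0.207%, 0.193% and 0.225% in CTRL and 0.247%, 0.234%, 0.250% and 0.264% in MSUS, and did not overlap. At position 9 of family 2 each of the other bases was common, with 11.9% for G9T, 9.49% for G9C and 6.96% for G9A. G9T took 11.6%, 11.4%, 10.8% and 11.6% in CTRL 1, 2, 3 and 5 and 12.1%, 12.2%, 11.9% and 12.4% in MSUS 6, 7, 8 and 10, higher in every MSUS library than in every CTRL library. G9C overlapped. G9A took 5.92%, 6.00%, 5.94% and 7.40% in CTRL 1, 2, 3 and 5 and 7.14%, 7.26%, 7.39% and 7.28% in MSUS 6, 7, 8 and 10. There CTRL 5 was the highest and the rest of its group the lowest. In family 4, A6C took 9.86% over all libraries, from 9.22% in CTRL 3 to 10.7% in CTRL 1, and the groups overlapped.

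Missing bases were measured at a matched 3′ end, as the counts of the shortened form over the sum of shortened and intact forms. Capitals mark the bases of the intact sequence that the shortened form lacked.
Family 1, 30 nt, 1 base: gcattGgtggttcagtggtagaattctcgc
Family 1, 31 nt, 1 base: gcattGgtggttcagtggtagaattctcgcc
Family 1, 31 nt, 2 bases: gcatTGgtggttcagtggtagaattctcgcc
Family 1, 31 nt, 3 bases: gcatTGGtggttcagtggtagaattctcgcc
Family 2, 31 nt, 1 base: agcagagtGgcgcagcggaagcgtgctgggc
Family 3, 30 nt, 1 base: gccgtgatcgtatagtGgttagtactctgc
For family 1 at 31 nt, the form lacking 1 base took 7.52%, 8.10%, 7.54% and 13.0% in CTRL 1, 2, 3 and 5 and 13.5%, 13.2%, 13.8% and 14.2% in MSUS 6, 7, 8 and 10. Every MSUS library was above every CTRL library, but CTRL 5 was near the MSUS libraries and far from the rest of its group. For the same RNA ending 1 base earlier the shares were 7.77%, 8.33%, 8.05% and 13.9% in CTRL and 14.3%, 13.4%, 14.2% and 14.3% in MSUS, where the groups overlapped. The form lacking 2 bases took 0.701%, 0.757%, 0.634% and 1.02% in CTRL 1, 2, 3 and 5 and 1.30%, 1.39%, 1.30% and 1.67% in MSUS 6, 7, 8 and 10. The form lacking 3 bases took 0.744%, 0.824%, 0.625% and 0.826% in CTRL and 0.921%, 1.15%, 0.961% and 1.04% in MSUS. Neither of these last forms overlapped between the groups, and for the form lacking 3 bases CTRL 5 was next to CTRL 2. How often forms lacking 2 or 3 bases do so in the whole table was not counted.

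Forms of families 2 and 3 were measured in the same way. In family 2 the form lacking 1 base took 15.1%, 16.1%, 15.7% and 19.8% in CTRL 1, 2, 3 and 5 and 19.2%, 19.01%, 19.1% and 18.97% in MSUS 6, 7, 8 and 10. CTRL 5 was the highest of the 8 libraries, and the groups overlapped. A form lacking AG from base 4 took 3.00%, 3.47%, 3.42% and 4.26% in CTRL and 4.25%, 4.29%, 4.56% and 4.39% in MSUS, and overlapped. A rare form lacking GG from base 9 ran the other way, with 0.164%, 0.183%, 0.212% and 0.122% in CTRL and 0.141%, 0.142%, 0.155% and 0.168% in MSUS, where CTRL 5 was the lowest of the 8. In family 3 the form lacking 1 base took 0.637%, 0.841%, 0.673% and 1.37% in CTRL and 1.40%, 1.67%, 1.44% and 1.38% in MSUS, with CTRL 5 just below the lowest MSUS library.

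Members were then paired with a more abundant sequence from which they differ by 1 missing base or 1 substitution. Among 200 pairs with a missing base, the variant's share was higher in every MSUS library than in every CTRL library in 35 (17.5%), against 41 of 438 such pairs (9.36%) in the whole table, and lower in 2, against 13 (2.97%). Among 500 pairs with a substitution it was higher in 20 (4%), against 74 of 2120 (3.49%) in the whole table, and lower in 9, against 42 (1.98%). Without CTRL 5, an alternative chosen after seeing the data, the share was higher in all MSUS libraries in 123 of the 200 pairs, against 164 of 438 (37.4%) in the whole table, and lower in 11, against 26 (5.94%). For substitutions it was then higher in 61, against 234 of 2120 (11%), and lower in 35, against 118 (5.57%). CTRL 5 had the highest share of the CTRL libraries in 135 of the 200 pairs with a missing base, and CTRL 1, 2 and 3 in 25, 25 and 15. Among the 500 substitution pairs these numbers were 127 for CTRL 5 and 119, 111 and 143 for CTRL 1, 2 and 3. Pairs from the same parent are not independent, and the cause of the place of CTRL 5 was not tested.

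The 3′ ends varied along another line between libraries. In the next sequences capitals mark the last bases at which the more frequent ends fell.
Family 1: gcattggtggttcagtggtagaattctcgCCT
Family 2: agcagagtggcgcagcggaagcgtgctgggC
Family 4: cggatagctcagtcggtagagcatcagaC
Families 2 and 4 ended almost always at a single base, with 99.7% to 99.9% of the 28-34 nt counts at base 31 in family 2 and 98.9% to 99.5% at base 29 in family 4, by library. Family 1 ended at base 30 in 26.6%, 12.6%, 14.4% and 22.3% of its 28-34 nt counts in CTRL 1, 2, 3 and 5 and in 9.29%, 35.7%, 14.2% and 38.3% in MSUS 6, 7, 8 and 10. It ended at base 32 in 28.4%, 49.9%, 42.0% and 29.9% in CTRL and in 57.6%, 21.2%, 51.3% and 24.5% in MSUS. CTRL 1, CTRL 5, MSUS 7 and MSUS 10 had more early ends, so this difference ran across both groups. Ends at bases 28 and 29 were rare, with 10687 and 4248 counts against 7805721 at base 30.

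Because intact family 1 sequences of 28 and 29 nt were so rare, forms with missing bases led at these lengths.
Most abundant at 28 nt, 3 bases missing: gcattggttcagtggtagaattctcgcc
Most abundant at 29 nt, 1 base missing: gcattgtggttcagtggtagaattctcgc
These took 40.4% of the 28-nt and 52.9% of the 29-nt counts, while the intact sequence took 59.6% at 30 nt and 59.0% at 31 nt. In CPM, counts scaled to library size with TMM factors, the 29-nt leader stood at 7655, 3949, 3515 and 8642 in CTRL 1, 2, 3 and 5 and at 5171, 16709, 8010 and 20533 in MSUS 6, 7, 8 and 10. MSUS 7 and MSUS 10 were highest, and the groups overlapped. The 30-nt leader ranged from 31068 CPM in MSUS 6 to 122702 CPM in MSUS 10, and the 31-nt leader from 110753 CPM in MSUS 6 to 153326 CPM in CTRL 1.

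The head of family 3 was the most abundant member with a matched gene. It is the 5′ end of n-THgtg7, a tRNA gene for histidine with the anticodon GTG, at chr3:96452495-96452566 on the plus strand (GRCm38.p6, RefSeq). RefSeq lists 10 genes of this series and the search reached only those in its windows, so the RNA is not tied to this copy. The 30-nt RNA covers bases 1 to 30 of the 72-base gene. Histidine tRNA is known for a G that is added in front of its first base after transcription and is needed for charging. That form was present, with the added base in capitals.
From base 1 of the gene (312288 counts): gccgtgatcgtatagtggttagtactctgc
With an extra G (255877 counts): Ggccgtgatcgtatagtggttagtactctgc
With an extra G, 1 base longer (444263 counts): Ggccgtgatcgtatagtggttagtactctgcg
Other bases stood in front too. The matched sequences that start at base 1 had 706255 counts with an extra G, 43903 with an extra A, 30999 with an extra T and 375 with an extra C. The base in front of the gene in the reference is C. The forms differed at the 3′ end. From base 1 of the gene, RNAs ended at base 30 in 86.9%, 90.7%, 87.1% and 92.2% in CTRL 1, 2, 3 and 5 and in 88.1%, 91.9%, 87.7% and 90.3% in MSUS 6, 7, 8 and 10. With the extra G they did so in 29.7%, 34.9%, 29.8% and 43.6% in CTRL and in 29.1%, 32.1%, 30.7% and 32.6% in MSUS. The forms thus differed in each of the 8 libraries, while CTRL and MSUS overlapped within each form. Over all libraries 56.8% of the RNAs with the extra G ended at base 31 of the gene, as a molecule of 32 nt outside the range.

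The remaining matches were smaller. Members that matched n-TVcac9, a valine tRNA gene with the anticodon CAC at chr13:23446142-23446214 on the minus strand, reached 23001 counts for bases 1 to 31 and 10291 counts for bases 3 to 33. RefSeq lists 11 genes of this series, and the search reached only genes in its windows. The RNA is thus tied neither to this copy nor to this anticodon. This RNA mostly ended later than the range allows, since 92.1% of its counts from base 1 ended at base 33, with 20650181 counts, and 7.77% at base 32. The sequence of bases 1 to 31 stood at 303, 146, 203 and 205 CPM in CTRL 1, 2, 3 and 5 and at 112, 279, 120 and 198 CPM in MSUS 6, 7, 8 and 10, and the groups overlapped. Of the 9 members of this gene that were tested, 2 were lower in every MSUS library, against 204 of 5513 sequences (3.7%) in the whole table, and 0 were higher, against 140 (2.54%). The 2 covered bases 2 to 32 and bases 4 to 32, with 563 and 337 counts, log2 fold changes of -0.65 and -1.39 and edgeR adjusted p of 0.400 and 0.348. Of the 11 tested members that matched n-THgtg7, 0 were lower and 0 were higher in every MSUS library. Members that matched n-TAagc16, an alanine tRNA gene with the anticodon AGC at chr13:21222586-21222657 on the plus strand, had 130 counts at 31 nt and 39 at 30 nt. These are not tied to this copy or this anticodon either.

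Some members had the layout of a sequencing adapter. Each library held a different abundant 30-nt sequence with no count in any other library. These 8 sequences shared their first 12 and last 12 bases and differed in the 6 between. In all, 52 members began with the shared bases and held 56568 counts (0.142% of the 28-31 nt counts), from 1557 in MSUS 10 to 15654 in CTRL 1. Of these, 0 occurred in more than 1 library and 0 passed the count minimum for testing.

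The first comparison asked whether MSUS and CTRL differed in the share of counts at each length. It used an exact two-sided permutation test over the 70 possible assignments, which can give no p below 0.0286. The share at 28 nt was 0.248% ± 0.0507 (SD, n = 4) in CTRL and 0.308% ± 0.105 (SD, n = 4) in MSUS (exact p of 0.371). At 29 nt it was 1.42% ± 0.430 (SD, n = 4) and 2.10% ± 0.831 (SD, n = 4), with an exact p of 0.2. By library, the 30-nt share was 13.6%, 7.00%, 6.91% and 11.4% in CTRL 1, 2, 3 and 5 and 5.94%, 19.01%, 9.06% and 18.7% in MSUS 6, 7, 8 and 10, with an exact p of 0.4. The 31-nt share was 21.3% ± 2.26 (SD, n = 4) and 21.2% ± 2.63 (SD, n = 4), with an exact p of 0.943. The groups overlapped at each of these lengths. Without the most abundant sequence of each length, the difference of the means fell from 0.686 to 0.0497 percentage points at 29 nt, from 0.0595 to 0.0394 at 28 nt and from 3.42 to 1.54 at 30 nt, and turned from -0.163 to 1.48 at 31 nt. Without MSUS 7 it fell from 0.0595 to 0.020005 at 28 nt, from 0.686 to 0.431 at 29 nt and from 3.42 to 1.47 at 30 nt, where it was 1.59 without MSUS 10. Without MSUS 6 it rose to 0.0972 at 28 nt and to 5.83 at 30 nt. Of all 35 lengths, 3 (8.57%) had an exact p under 0.05, at 18, 19 and 21 nt, each with a Benjamini-Hochberg adjusted value of 0.333.

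The second comparison asked which single sequences differed. Of the 1056 members tested, edgeR's quasi-likelihood test, adjusted by Benjamini-Hochberg over all 5513 tested sequences, called 0 at an adjusted p under 0.05, and it called 0 (0%) of the whole table. At an unadjusted p under 0.05 there were 193 members, 182 higher and 11 lower in MSUS, against 684 sequences (12.4%) of the whole table, 355 higher and 329 lower. With a single library left out, the fewest were 73 of 1036 members without CTRL 3 (64 higher, 9 lower). The whole table then had 293 of 5303 sequences (156 higher, 137 lower). The most were 239 of 993 without CTRL 5 (227 higher, 12 lower), against 832 of 5218 (517 higher, 315 lower). Lower members were most numerous without MSUS 7, with 133 higher and 27 lower, against 347 and 291 in the whole table. DESeq2 called 15 members and edgeR's exact test 5, all higher in MSUS, against 63 sequences (39 higher, 24 lower) and 34 sequences (13 higher, 21 lower) of the whole table. In 3 of the 15 and 3 of the 5, the member met the count minimum through the 4 MSUS libraries alone, which fixes its direction. Without CTRL 5 the quasi-likelihood test called 28 of 993 members, all higher in MSUS, against 122 of 5218 sequences (2.34%) of the whole table, 99 higher and 23 lower, and without any other single library it called 0. Of the 28, 12 met the count minimum through the 4 MSUS libraries alone, a way that 3 CTRL libraries cannot offer. The median log2 fold change of MSUS over CTRL was 0.39 for the members and -0.03 for all tested sequences. With TMM computed over the 28-31 nt sequences alone, the median of all sequences shifted by -0.28, the median of the members was 0.11, and the members at an unadjusted p under 0.05 split into 53 higher and 52 lower, against 133 and 930 in the whole table. The members' median exceeded that of all sequences by 0.42 under both scalings. A change of scaling moves all log2 fold changes by nearly the same amount, so this gap could hardly change and does not test the scaling.

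The third comparison asked the same of prefix groups, and the test called 1 of 589, which was also the single call among 2897 groups (0.0345%) of the whole table. This group of 2 sequences had 74, 41, 23 and 24 counts in CTRL 1, 2, 3 and 5 and 2, 0, 0 and 0 in MSUS 6, 7, 8 and 10, a CTRL to MSUS ratio of 77.1 with a 95% exact interval of 21.0 to 642 for counting error. Its edgeR quasi-likelihood p after Benjamini-Hochberg adjustment was 0.0212, and 0.0127 with no count minimum. It met the minimum through the 4 CTRL libraries alone, which fixes that its counts did not overlap. It had no match in the mouse reference and its letters are not given. Without any 1 of the CTRL libraries it missed the count minimum and was not tested, and without any 1 of the MSUS libraries no member group was called. Its log2 fold change was -5.92 with all libraries. It was -8.27 without MSUS 6, which held all the MSUS counts, and -5.50, -5.62 and -5.61 without MSUS 7, 8 and 10. The edgeR adjusted p was then 0.0507, 0.102, 0.101 and 0.118, and DESeq2 gave this group none. At an unadjusted p under 0.05 there were 153 groups, 145 higher and 8 lower, against 411 (14.2%) of the whole table, 231 higher and 180 lower. Leaving out 1 library, the fewest were 90 of 560 without CTRL 1 (88 higher, 2 lower), against 284 of 2742 in the whole table (140 higher, 144 lower). The most were 183 of 557 without CTRL 5 (174 higher, 9 lower), against 556 of 2734 (373 higher, 183 lower). Without CTRL 5 the test called 61 of 557 groups, 60 higher and 1 lower, against 190 of 2734 (6.95%) of the whole table, 159 higher and 31 lower, and 13 of the 61 met the count minimum through the MSUS libraries alone. DESeq2 called 26 groups, all higher, and edgeR's exact test 4 higher and 1 lower, against 39 higher and 15 lower and 6 higher and 7 lower in the whole table. In 1 of the 26, and in 1 of the 4 that were higher, the minimum was met through the MSUS libraries alone. With TMM over the 28-31 nt sequences, 51 groups were higher and 37 lower at an unadjusted p under 0.05, against 94 and 482 in the whole table.

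The log2 fold changes of the groups differed by kind. Of the 589 tested groups, 189 were led by a sequence that lacks 1 to 4 bases of a more abundant one, and their median log2 fold change was 0.71, with 161 above 0. The 289 groups led by a 1-base substitution had a median of 0.28, with 226 above 0, and the other 111 groups a median of -0.08, with 49 above 0. Of all 2897 groups in the whole table, 48.3% were above 0. Without CTRL 5 the medians of the 3 kinds were 0.84, 0.35 and -0.08, and with TMM over the 28-31 nt sequences 0.45, -0.01 and -0.37. Of the 145 groups higher at an unadjusted p under 0.05, 99 were of the first kind, 41 of the second and 5 of the third, and of the 51 that were higher with TMM over the 28-31 nt sequences these numbers were 43, 5 and 3. Of the 37 that were lower with this scaling, 2, 13 and 22 were of these kinds. Of the 61 groups called without CTRL 5, 31, 18 and 12 were of these kinds. The difference between kinds was not tested, since groups of the same parent are not independent.

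None of the 17 groups was called by edgeR's quasi-likelihood test with all libraries, and 7 of them had an unadjusted p under 0.05, as had 153 of the 589 member groups (26.0%) and 411 of the 2897 groups (14.2%) of the whole table. The head group of family 1 stood at 245356, 174318, 162776 and 169335 CPM in CTRL 1, 2, 3 and 5 and at 142525, 239986, 165957 and 242654 CPM in MSUS 6, 7, 8 and 10. The groups overlapped, with a log2 fold change of 0.07 ± 0.26 (SE) and an edgeR adjusted p of 0.920. Its relative lacking 1 base stood at 27735, 29559, 23456 and 36639 CPM in CTRL and at 51622, 45952, 51935 and 53068 CPM in MSUS. MSUS was higher in 4 of 4 libraries than each CTRL library, with a log2 fold change of 0.79 ± 0.22 (SE) and an edgeR adjusted p of 0.253. Without CTRL 5 these were 0.93 ± 0.26 (SE) and 0.0444, and over all alternatives the adjusted p ran from 0.0426 (DESeq2) to 0.649 (without CTRL 3). The relative lacking 2 bases stood at 1778, 1847, 1382 and 2065 CPM in CTRL and at 3139, 3138, 3128 and 3777 CPM in MSUS. These groups did not overlap either, with a log2 fold change of 0.90 ± 0.22 (SE), an edgeR adjusted p of 0.253 and, without CTRL 5, 0.0346, within a range of 0.0144 (DESeq2) to 0.649 (without CTRL 3). The relative lacking 3 bases stood at 1523, 1802, 1144 and 1266 CPM in CTRL and at 1905, 1871, 1932 and 1662 CPM in MSUS. It overlapped, with a log2 fold change of 0.36 ± 0.22 (SE) and an edgeR adjusted p of 0.502, or 0.588 without CTRL 5. The G6T group stood at 48352, 41616, 33196 and 58726 CPM in CTRL and at 46718, 75329, 50685 and 68816 CPM in MSUS. Here the groups overlapped, and the edgeR adjusted p was 0.520.

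In family 2 CTRL 5 was the highest CTRL library in the head group and in each of the altered groups. The head group stood at 5358, 4838, 3433 and 7843 CPM in CTRL 1, 2, 3 and 5 and at 6462, 10454, 8790 and 7711 CPM in MSUS 6, 7, 8 and 10. CTRL 5 lay within the MSUS range, the log2 fold change was 0.64 ± 0.28 (SE) and the edgeR adjusted p was 0.335. The form lacking 1 base stood at 952, 929, 636 and 1938 CPM in CTRL and at 1542, 2454, 2076 and 1805 CPM in MSUS, and the groups overlapped. Its edgeR adjusted p was 0.314, and over the alternatives it ran from 0.0180 (without CTRL 5, log2 fold change 1.25) to 0.675 (without CTRL 3). Without CTRL 5 the G9T, G9C and G9A groups were also called, at log2 fold changes of 1.06, 1.05 and 1.25, and the head group and the A6C group were not.

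Family 3, the histidine tRNA fragment, had a lower mean in MSUS, and neither of its groups was called. Its head group stood at 3902, 3272, 2826 and 3635 CPM in CTRL 1, 2, 3 and 5 and at 1700, 4017, 1734 and 2506 CPM in MSUS 6, 7, 8 and 10. MSUS 6 and MSUS 8 were lowest, MSUS 7 was highest and the groups overlapped. As a share of the 28-31 nt counts, family 3 was lower in every MSUS library, with 1.88% ± 0.111 (SD, n = 4) in CTRL and 1.15% ± 0.280 (SD, n = 4) in MSUS. This share was not tested, and it depends on the counts of all other members.

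The 5 members with the smallest unadjusted p had 157, 277, 1583, 184 and 137 counts in all, and the median member had 74. Each of the 5 had an edgeR adjusted p of 0.305. Without CTRL 5 these were 0.0241, 0.0103, 0.00168, 0.0170 and 0.0426 for members 1 to 5, from 0.00117 to 0.0379 with DESeq2 and from 0.00244 to 0.0411 with the exact test. Without CTRL 3 each was 0.826. For members that lack bases, the longer parent is given with the missing bases in capitals.
Member 1: tcccatggtatagcggttaggattcctggt
Member 2, parent: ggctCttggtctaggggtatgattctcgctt
Member 3, parent: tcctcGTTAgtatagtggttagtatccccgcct
Member 4: gtcggtcgggctggggcgcgaagcggggc
Member 5, parent: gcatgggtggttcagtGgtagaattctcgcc
Member 1 had 10, 10, 8 and 4 counts in CTRL 1, 2, 3 and 5 and 39, 28, 25 and 33 in MSUS 6, 7, 8 and 10. Member 2 had 8, 11, 16 and 24 counts in CTRL and 65, 59, 41 and 53 in MSUS. It took 13.8%, 12.4%, 29.1% and 17.4% of the sum with its parent in CTRL and 28.8%, 26.0%, 25.5% and 26.9% in MSUS, where CTRL 3 was the highest of the 8 and the groups overlapped. Its parent had 50, 78, 39 and 114 counts in CTRL 1, 2, 3 and 5 and 161, 168, 120 and 144 in MSUS 6, 7, 8 and 10. Member 3, which lacks 4 bases of its parent, had 24, 56, 44 and 139 counts in CTRL and 379, 387, 316 and 238 in MSUS. Its log2 fold change was 2.35 ± 0.49 (SE), and 3.06 without CTRL 5. Its parent of 33 nt had 3074, 4492, 4669 and 2057 counts in CTRL 1, 2, 3 and 5 and 4868, 3083, 3381 and 3536 in MSUS 6, 7, 8 and 10. The shortened form thus took 0.775%, 1.23%, 0.934% and 6.33% in CTRL and 7.22%, 11.2%, 8.55% and 6.31% in MSUS, and CTRL 5 was again beside the MSUS libraries. Member 4 had 5, 5, 3 and 15 counts in CTRL and 33, 28, 74 and 21 in MSUS, and member 5 had 7, 8, 10 and 12 in CTRL and 27, 26, 22 and 25 in MSUS. Members 1, 4 and 5 met the count minimum through the 4 MSUS libraries alone, so it fixes that their counts do not overlap, and without any 1 MSUS library they were not tested. With no count minimum their adjusted p was 0.215, 0.276 and 0.428.

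The last comparison asked whether 3′ ends differed, by the mean length of each prefix group weighted by counts within 28-31 nt. It could be computed for 67 groups with at least 3 lengths and 200 counts in every library, and it varied by 0.334 nt between libraries in the median group. By the difference of the means, 45 of the 67 were shorter and 22 longer in MSUS. CTRL and MSUS did not overlap in 3 of the 67 (4.48%), each with an exact permutation p of 0.0286, the smallest this design allows, and an adjusted value of 0.638, so 0 were called.
Mean length group 1: gcccggatagctcagtcggt
Mean length group 2: tcccatatggtctagcggtt
Mean length group 3: ggctcgttggtctaggggta
The first of these was shorter in MSUS, with 30.80 nt ± 0.0349 (SD, n = 4) in CTRL and 30.69 nt ± 0.0643 (SD, n = 4) in MSUS. The second was longer, with 29.45 nt ± 0.0995 (SD, n = 4) and 29.69 nt ± 0.133 (SD, n = 4), and so was the third, with 29.97 nt ± 0.121 (SD, n = 4) and 30.27 nt ± 0.143 (SD, n = 4). Over all lengths in place of 28-31 nt, the difference of the first turned from -0.118 to 0.0276 nt, and those of the other 2 fell from 0.246 to 0.0870 nt and from 0.297 to 0.150 nt. CTRL 1, CTRL 5, MSUS 7 and MSUS 10 were among the 4 libraries with the shortest means in 58, 56, 60 and 54 of the 67 groups, and CTRL 2, CTRL 3, MSUS 6 and MSUS 8 in 10, 14, 11 and 5. The spread of mean lengths thus ran across CTRL and MSUS.

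MicroRNAs that mark blood cells and tissues were read from the same libraries. Of 5 erythrocyte markers 3 were in the reference and counted, with a sum of 2436, 2587, 3667 and 3084 CPM in CTRL 1, 2, 3 and 5 and 2003, 1796, 1680 and 2686 CPM in MSUS 6, 7, 8 and 10, most of it miR-16-5p. Of 6 platelet and leukocyte markers 3 were counted, with 127, 276, 305 and 195 CPM in CTRL and 96.1, 161, 113 and 206 CPM in MSUS, most of it miR-142a-5p. Both sums overlapped between the groups. Of 2 liver markers only miR-192-5p was in the reference, with 1290, 870, 1211 and 1009 CPM in CTRL and 560, 750, 453 and 770 CPM in MSUS. It was lower in every MSUS library, as were 204 of 5513 tested sequences (3.7%) of the whole table. All 20-24 nt sequences together took 20.7% ± 3.65 (SD, n = 4) of the counts in CTRL and 16.4% ± 4.13 (SD, n = 4) in MSUS, and overlapped. miR-155-5p, miR-126a-3p, the muscle marker miR-208a-3p and the brain marker miR-9-5p were not listed in the table, which holds no sequence with a total below 8, and the other 3 muscle and brain markers were not in the reference. The part of blood cells or liver in the differences above was not tested.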

How the data were processed

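According to the study's methods, small RNA libraries were made by the TruSeq protocol, adapters were trimmed with cutadapt and reads were collapsed to unique sequences. The table as deposited by the authors gives, for each sequence, the unscaled read count in each library. The submitters' notes name cutadapt 1.14, Trim Galore 1.16, Salmon 0.11.2 and GRCm38 for the series. The lowest total in the table was 8 and the lowest maximum 4, a floor whose rule is not given in the sources used here. The number of count columns without a group was 0, and the sperm files were not used.

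Sequences with over 20 counts in 4 or more libraries were tested with R 4.3.3 and edgeR 4.0.16 (TMM over all sequences, quasi-likelihood test, Benjamini-Hochberg over the whole table), and again with DESeq2 1.42.0 and edgeR's exact test. Prefix groups joined members of the same first 20 bases. Lengths and mean lengths were compared by exact two-sided permutation over 70 splits (smallest p 0.0286) in Python 3.11.15 with scipy 1.17.1. The edgeR test was also run on counts simulated with a common dispersion. It recovered 152 of 168 tested sequences changed by a log2 of 2, with 11 false calls. The simulated libraries had no outlier such as CTRL 5, so this does not show how the test fares with one. Named groups were the 20 most abundant (3 are not reported here), the 5 with the smallest p and the 3 with the smallest p of mean length, and named sequences were the leader of each length and the 5 with the smallest p. RNA names required an exact match to RefSeq. Marker lists covered erythrocytes, platelets and leukocytes, liver, muscle and brain. The members and lists were chosen with earlier results of these data known.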

Additional observations from a re-analysis of the deposited data

Results flagged for a closer look

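In 168 sets of 4 libraries, 15 had a library whose distance from its nearest neighbour, over the range of the group, was above Dixon's 95% critical value for 4 values. Chance gives about 1 in 20 groups of normally distributed values such a library. The sets reuse the same libraries and related sequences, so they are not independent and the number flagged cannot be set against that rate. CTRL 5 was that library in 6 of the 15, and the cause was not tested.

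CTRL 5 was highest of CTRL in the share of family 1 lacking 1 base, at 13.9%, 13.0% and 12.8% for intact forms of 30, 31 and 32 nt. MSUS 7 was lowest of MSUS for the 30-nt form, at 13.4%. CTRL 5 was also highest of CTRL for G9A in family 2 (7.40%), for G17A in family 3 (0.292%) and for member 4 of the smallest p (1.07 CPM), in which MSUS 8 was highest of MSUS (5.88 CPM).

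CTRL 1 was highest of CTRL in the head group of family 1 (245356 CPM) and in the share of family 2 ending at base 31 (99.9%). MSUS 7 was highest of MSUS in the group with G9A and G15A (4756 CPM) and in the share of family 3 (1.57%). MSUS 10 was highest of MSUS in the group lacking 2 bases (3777 CPM), MSUS 8 for G3C in family 4 (0.957%) and MSUS 6 in the called group whose letters are not given (0.137 CPM).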

How the results depend on the processing

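No paired analysis was possible because CTRL and MSUS serum libraries share no replicate number. The number of sequences called, 0 with all libraries, was 2 with no count filter and 2 with filterByExpr, all lower in MSUS (whole table, 3 each), and 15 with DESeq2 and 5 with edgeR's exact test, all higher. Leaving out 1 library at a time it ran from 0 to 28, the latter without CTRL 5. The number of prefix groups called, 1 with all libraries, was 2, 2, 26 and 5 under these settings, of which 0, 0, 26 and 4 were higher (whole table with no filter and filterByExpr, 3 each), and ran from 0 to 61 when leaving out 1 library, the latter also without CTRL 5. For both counts the cause was not tested.

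Log2 fold changes near 0 changed sign, none of them called, and the cause was not tested. With TMM over the 28-31 nt sequences the head group of family 1 was at -0.230 and the group with G9A and G15A at -0.124. Leaving out 1 library, the head group of family 1 ran from -0.0131 to 0.229 and the group with G9A and G15A from -0.00606 to 0.372. The 31-nt share, MSUS minus CTRL, was 1.48 percentage points without the most abundant sequence of each length and ran from -1.33 (without MSUS 7) to 0.719 (without MSUS 6). With the counts outside 20-24 nt as denominator this difference was -1.57, against -0.163 over all counts. The mean length of the first group was 0.0276 nt higher in MSUS over all lengths.

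The depth limits the rarest members, since 1888 had under 100 counts in all and the table lists none below 8. With 4 libraries in each group an exact test can give no p below 0.0286. Most members have no RNA name, names required an exact match, and no genome sequence was searched.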
